A study of Homo sapiens with 4 samples.

Results

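The genes described here build and fill the lysosome, the acidic compartment in which cells digest proteins, lipids, sugar chains and nucleic acids. The rule that chose them uses annotation and symbols alone and takes every gene that the deposited table places in the KEGG lysosome pathway, and every gene whose symbol begins with ATP6V or ATP6AP, leaving out CD68, LAPTM5 and symbols that begin with ABC or SLC. The pathway gave 122 genes and the symbol pattern 48, and after 7 were left out the members numbered 154 of the 60664 genes in the table. The cells were Hs578T, an established line grown from a human breast tumour, triple-negative and mesenchymal in character. The study sequenced 2 libraries of an empty control group and 2 with forced expression of TFCP2L1, a DNA-binding protein related to grainyhead and CP2, and the deposited table heads the control columns FLAG. No vector, promoter, clone, passage or time after introducing the gene is given, and both groups share the parental line and no other stated treatment. Nothing says whether a group's libraries are separate cultures, so the p-values reflect only how far these libraries spread, and that spread may be technical. No batch is labelled, so a batch that follows the groups and the groups themselves cannot be told apart.

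The interior of the lysosome is acidified by the V-ATPase, a rotary pump whose cytosolic V1 sector splits ATP and whose membrane-embedded V0 sector moves protons. Soluble hydrolases are made in the endoplasmic reticulum, marked with mannose 6-phosphate in the Golgi and carried by sorting receptors, clathrin and adaptor complexes to endosomes. Many of these genes are known targets of TFEB, TFE3 and MITF, transcription factors that bind a CACGTG-centred promoter element and that mTORC1 holds in the cytosol of fed cells.

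Depth was 23304022 and 18960674 estimated counts for the empty libraries, and 23755664 and 26355502 for those with TFCP2L1. TFCP2L1 itself stood at 0.515 and 1.00 counts scaled to library size (CPM) in the empty libraries and at 193.9 and 193.4 CPM in the TFCP2L1 libraries. Of the 8 markers fixed for a mesenchymal breast line all 8 passed the filter on low counts, 2 rose (VIM and CDH2) and 5 fell, and of 8 luminal markers PGR was at 0, CDH1 and EPCAM stayed under the filter, ERBB2 rose and KRT18 fell. FOXA1, at 0.581 to 1.95 CPM, was called higher, a call lost without empty replicate 2 (adjusted p = 0.0995) or TFCP2L1 replicate 2 (0.103). Of 15 macrophage markers 5 passed the filter, of which 1 was called higher and 3 lower, or 20.0% and 60.0%, beside 23.5% and 23.9% of all tested genes. The whole list had a summed level of 19.7 and 22.8 CPM in the empty and 19.5 and 17.5 CPM in the TFCP2L1 libraries. Among the lower calls, that of ITGAM was lost without empty replicate 1 (adjusted p = 0.141) or TFCP2L1 replicate 1 (0.0669), and that of MARCO without empty replicate 1 (0.117), empty replicate 2 (0.089) or TFCP2L1 replicate 2 (0.245). SPI1, TYROBP and C1QA, which define macrophages, were at 0 in all 4 libraries, while CSF1R fell (log2 fold change -0.89, edgeR adjusted p = 3.82e-05) and MSR1 rose (1.61, edgeR adjusted p = 0.000103).

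Of the 154 members, 125 had enough counts to be tested. The 29 others were all 18 V-ATPase pseudogenes and 11 genes with at most 17 counts over the 4 libraries, among them the kidney subunit ATP6V1B1 and the immune-cell protease CTSG. With TFCP2L1, 43 members rose and 23 fell at an edgeR adjusted p under 0.05, together 52.8% of those tested, while 47.5% of all 16544 tested genes were called, 23.5% higher and 23.9% lower. The members' shares were 34.4% higher and 18.4% lower. Their median log2 fold change was 0.07, against -0.00 over all tested genes. Changes past 2-fold were few: GNPTAB rose by more than that and ATP6AP1L, ATP6V0D2, ACP5 and HYAL1 fell by more, whereas 13.9% of all tested genes were called with a change of that size. The groups did not overlap in CPM for 99 members, or 79.2%, beside 73.7% of all tested genes. Without the empty replicate 1 library the number of fallen members was 14, not 23, and with limma on log2(TPM + 1) 21 members were called higher and 7 lower. The authors' own mark of significance in the authors' deposited table is on 23 members, 17 higher and 6 lower, and 54 of the 66 members called here had an adjusted p under 0.05 there in the same direction. The authors' values come from the same libraries and are no independent check. The shares of marked and of agreeing genes over all genes are not given here, so these counts have no background. As in any bulk RNA measurement, a lower share of cells with a transcript and less of it per cell cannot be told apart.

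**Figure D1:**
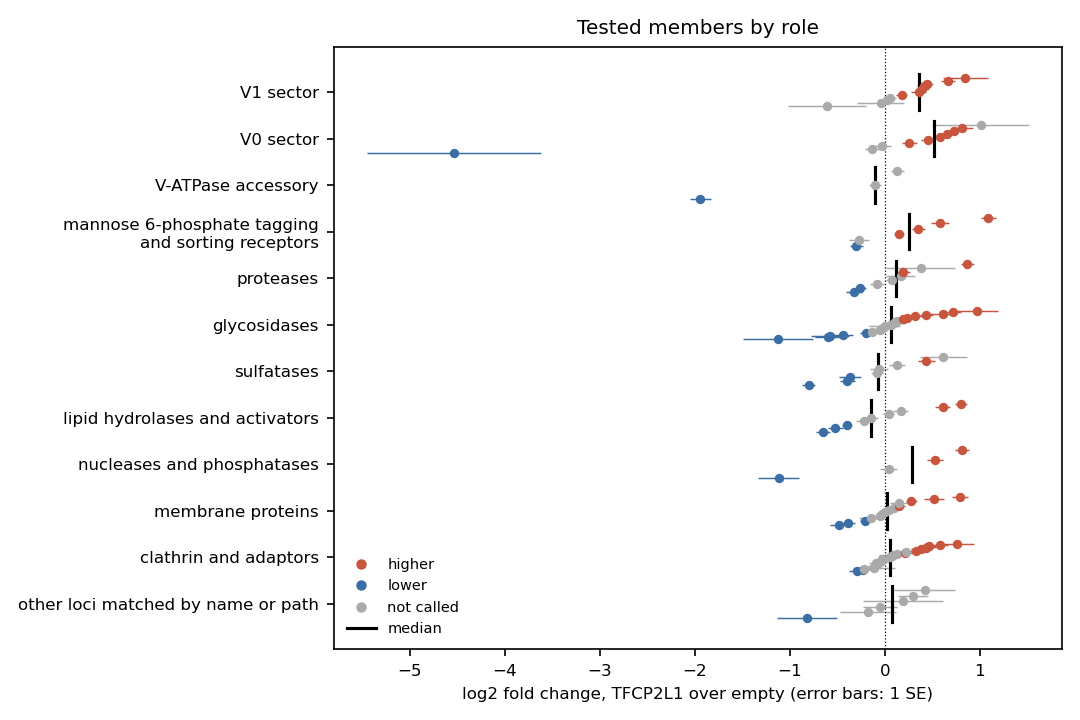
Log2 fold change (TFCP2L1 over empty) of each of the 125 tested members, in rows by role, with error bars of 1 SE. Points are coloured by call and the black bar is the row's median; the V1 and V0 rows lie mostly right of 0 (medians 0.36 and 0.52), while the sulfatase and lipid hydrolase rows have medians of -0.07 and -0.14.

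TFEB, the best known activator of lysosomal genes, was measured with the regulators of these members. It stood at 4.76 and 4.33 CPM in the empty libraries and at 43.4 and 47.4 CPM in the TFCP2L1 libraries, so the groups lay far apart. TFEB (ENSG00000112561, GRCh38 chromosome 6, 41683978 to 41736259, minus strand, protein-coding) thus rose 9.94-fold, a log2 fold change of 3.31 ± 0.11 (SE, 2 libraries per group, edgeR adjusted p = 2.28e-11), and leaving out any library kept the value between 3.25 and 3.39. The related factors had other values. TFE3 fell slightly, from 78.3 and 73.6 to 62.5 and 66.2 CPM (log2 fold change -0.24, edgeR adjusted p = 0.0134), a call lost without the empty replicate 1 library (adjusted p = 0.196). MITF stood at 10.5 and 7.88 CPM against 11.8 and 9.16, overlapping groups that did not pass the test (edgeR adjusted p = 0.414). TFEC had 1 to 4 counts per library, too few to test. Per gene length, TFEB reached 29.4 and 30.6 length-scaled units (TPM) with TFCP2L1, beside 28.3 and 28.5 TPM for TFE3.

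Of 28 tested regulators of lysosomal transcription and nutrient signalling, 9 rose and 5 fell, with a median log2 fold change of -0.02. The list includes TFEB, TFE3 and MITF. Its shares were 32.1% higher and 17.9% lower, beside 23.5% and 23.9% of all tested genes. RHEB, the small GTPase that activates mTORC1, rose from a mean of 123 ± 0.0554 to 194 ± 7.85 CPM (SD, 2 libraries each, log2 fold change 0.66, edgeR adjusted p = 5.77e-07). MTOR, the kinase itself, rose by 0.37 and PPP3CB, a catalytic subunit of the phosphatase calcineurin, by 0.53 on the log2 scale. RRAGA, a Rag GTPase that brings mTORC1 to the lysosome, fell by 0.56 and TSC1, an inhibitor of RHEB, fell by 0.42. PPP3CA and PPP3R1, also of calcineurin, were not called, nor were TSC2, RPTOR and MLST8.

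**Figure D2:**
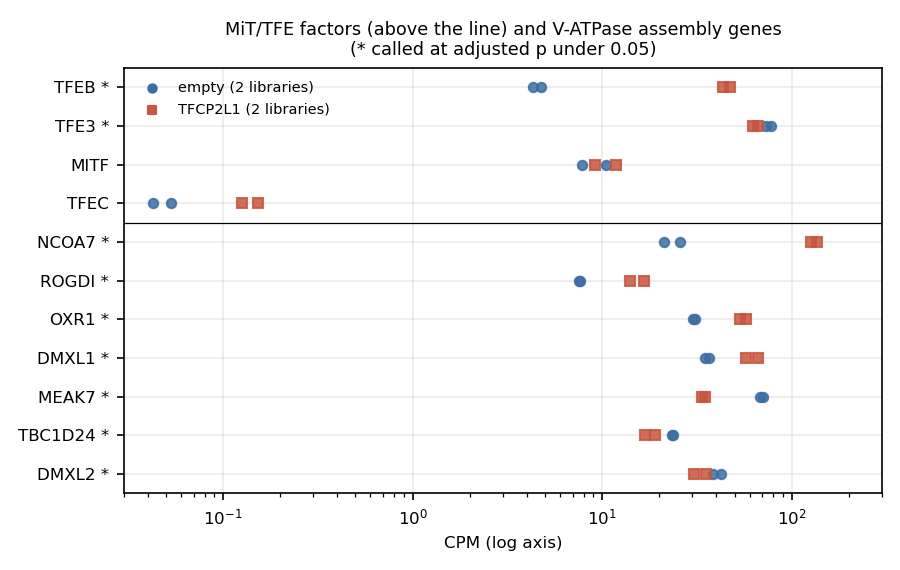
CPM on a log axis of TFEB, TFE3, MITF and TFEC (above the line) and of 7 genes whose products assemble or bind the V-ATPase, 1 point per library, with an asterisk for genes called at an edgeR adjusted p under 0.05. TFEB (4.33 and 4.76 against 43.4 and 47.4 CPM) and NCOA7 (21.1 and 25.6 against 127 and 136 CPM) are the rows whose groups lie farthest apart.

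Promoters of 8 members are shown because they hold the CACGTG core that TFEB-family factors bind and because their genes did not move alike. A RefSeq promoter (GRCh38.p14, from 250 bases before to 50 after the start) was matched by symbol for 99 of the 154 members and 90 of the 125 tested, 72.0% of these, which is too few to compare the members' share of motif-bearing promoters with that of other genes, so that check is void. The first search covered 3 nested motifs, each its own reverse complement and so the same on both strands. CACGTG was in 7.43% of all 27305 promoters of that length, TCACGTGA in 1.04%, and TCACGTGA preceded by G and followed by C, the full motif, in 0.381%. Over the 11398 promoters matched to tested genes these shares were 9.91%, 1.82% and 0.728%. The full motif was found in 6 members. MCOLN1 at chr19:7522469-7522648 (plus strand), GNPTG at chr16:1351776-1351955 (plus strand) and IGF2R at chr6:159968915-159969094 (plus strand) belong to genes that rose, GALNS at chr16:88856960-88857139 (minus strand) to a gene that fell, and GAA at chr17:80101426-80101605 (plus strand) and ATP6V1G1 at chr9:114587614-114587793 (plus strand) to genes that were not called. CTSD at chr11:1763903-1764082 (minus strand) and ATP6V0B at chr1:43974805-43974984 (plus strand), both of genes that rose, hold the core alone. Promoters not shown hold the core too, among them LAMP1 with 6 copies, not called, and CD63 with 1, which fell. In all, the core was in 9 of 30 matched members that rose, 2 of 15 that fell and 10 of 45 not called. Capitals mark these motifs, and each sequence runs 5′ to 3′ on the gene's strand and ends at most 25 bases after the start.
MCOLN1: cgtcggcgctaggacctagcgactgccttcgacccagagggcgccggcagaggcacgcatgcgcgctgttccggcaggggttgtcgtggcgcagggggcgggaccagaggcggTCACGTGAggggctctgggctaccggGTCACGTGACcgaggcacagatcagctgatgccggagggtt
GNPTG: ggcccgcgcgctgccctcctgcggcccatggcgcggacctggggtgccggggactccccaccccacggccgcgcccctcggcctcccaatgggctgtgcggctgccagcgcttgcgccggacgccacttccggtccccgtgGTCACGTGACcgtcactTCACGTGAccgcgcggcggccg
IGF2R: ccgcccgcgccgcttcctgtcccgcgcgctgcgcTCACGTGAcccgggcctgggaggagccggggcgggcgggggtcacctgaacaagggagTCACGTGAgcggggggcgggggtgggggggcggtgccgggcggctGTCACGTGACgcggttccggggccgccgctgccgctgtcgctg
GALNS: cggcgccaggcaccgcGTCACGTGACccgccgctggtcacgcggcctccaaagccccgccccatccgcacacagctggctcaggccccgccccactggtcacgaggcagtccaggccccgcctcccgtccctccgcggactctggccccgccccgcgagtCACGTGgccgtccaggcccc
GAA: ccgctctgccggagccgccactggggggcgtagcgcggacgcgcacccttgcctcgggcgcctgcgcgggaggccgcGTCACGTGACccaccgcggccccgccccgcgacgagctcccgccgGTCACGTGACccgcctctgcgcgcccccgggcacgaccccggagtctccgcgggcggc
ATP6V1G1: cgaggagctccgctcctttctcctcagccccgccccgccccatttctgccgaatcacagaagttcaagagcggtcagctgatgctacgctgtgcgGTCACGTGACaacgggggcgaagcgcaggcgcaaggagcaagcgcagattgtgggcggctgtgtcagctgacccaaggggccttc
CTSD: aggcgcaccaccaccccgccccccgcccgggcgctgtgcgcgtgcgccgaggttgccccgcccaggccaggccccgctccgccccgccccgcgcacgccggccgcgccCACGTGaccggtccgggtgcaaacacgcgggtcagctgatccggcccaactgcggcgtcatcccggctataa
ATP6V0B: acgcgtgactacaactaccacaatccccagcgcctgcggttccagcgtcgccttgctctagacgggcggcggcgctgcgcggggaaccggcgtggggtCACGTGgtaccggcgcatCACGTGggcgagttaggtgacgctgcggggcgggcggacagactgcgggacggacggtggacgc
Counted from the start site, the full motif began at base -16 in MCOLN1, -14 in GNPTG, -30 in IGF2R, -176 in GALNS, -60 in ATP6V1G1, and at -78 and -33 in GAA. The core began at -47 in CTSD and at -57 and -39 in ATP6V0B. Outside these, CCAG followed after 6 bases of any kind by CCAG, a spacing bound by CP2 factors, was searched on both strands. It was in 4.14% of all promoters. Among matched members it was in 0 of 30 that rose, 0 of 15 that fell and 3 of 45 not called. These numbers are too small for a comparison, so none is drawn. A match describes letters in this window and shows no binding.

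The V-ATPase genes were more often higher than lower. Of 24 tested, 13 rose and 2 fell, a share of 54.2% higher beside 23.5% of all tested genes, with a median log2 fold change of 0.31. Summed over its genes, the pump stood at 1558 and 1545 TPM in the empty and 1896 and 1965 TPM in the TFCP2L1 libraries, without overlap. Both sectors took part, with 7 of 11 V1 and 6 of 10 V0 genes higher.

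In the V1 sector, ATP6V1H, a regulatory subunit that joins V1 to V0, had the largest change of the sector apart from the scarce isoform ATP6V1E2. It stood at 47.0 and 48.5 CPM in the empty and at 74.8 and 76.6 CPM in the TFCP2L1 libraries, a log2 fold change of 0.67 ± 0.07 (SE, 2 libraries per group, edgeR adjusted p = 3.4e-06). ATP6V1E1, a peripheral stalk subunit and at 246 to 343 TPM the most abundant V1 transcript per length, rose from 207 and 198 to 266 and 287 CPM (0.45, edgeR adjusted p = 2.53e-05). The catalytic hexamer rose in both of its subunits. ATP6V1A, which splits ATP, went from 81.4 and 75.8 to 109.6 and 99.8 CPM (0.41, edgeR adjusted p = 0.000285). ATP6V1B2, its partner, went from 63.0 and 65.3 to 81.9 and 87.0 CPM (0.40, edgeR adjusted p = 0.00032). In each of these 4 genes both TFCP2L1 libraries lay above both empty ones.

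ATP6V1F, of the central stalk, rose by 0.36 on the log2 scale, ATP6V1C1, which links stalk and V0, by 0.18, and the low-level stalk isoform ATP6V1E2 by 0.85. The call of ATP6V1C1 was lost without the empty replicate 1 library (adjusted p = 0.125) or the empty replicate 2 library (0.22), and that of ATP6V1E2 without empty replicate 1 (0.0539) or TFCP2L1 replicate 1 (0.063). The remaining 4 tested V1 genes were not called. ATP6V1D, of the central stalk, stood at 108 and 111 against 114 and 114 CPM (log2 fold change 0.06, edgeR adjusted p = 0.447). ATP6V1G1, of the peripheral stalk, stood at 62.1 and 61.3 against 58.2 and 67.0 CPM (0.02, edgeR adjusted p = 0.85), with overlapping groups. Its promoter holds the full motif shown above. ATP6V1G2 and ATP6V1C2, at 0.25 to 3.94 TPM, were the other V1 genes not called.

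In the V0 sector the proteolipid ring, which carries the protons, rose in both of its subunits. ATP6V0C went from 90.0 and 92.3 to 131 and 155 CPM (log2 fold change 0.65 ± 0.08 SE, edgeR adjusted p = 7.69e-06), and ATP6V0B from 88.2 and 81.5 to 121 and 133 CPM (0.58 ± 0.07 SE, edgeR adjusted p = 1.1e-05). The groups overlapped in neither. Both e subunits rose too, ATP6V0E1 from 134 and 128 to 169 and 189 CPM (0.45, edgeR adjusted p = 6.85e-05) and the less abundant ATP6V0E2 from 15.0 and 17.8 to 26.3 and 31.2 CPM (0.82, edgeR adjusted p = 4.16e-05). ATP6V0E2 shares exon sequence with an antisense gene, ATP6V0E2-AS1, which stood at 1.06 to 2.10 CPM and was not called. Reads of such pairs cannot be told apart where the counting did not use strand, and the strand setting is not given. On the same strand, ATP6V0E2 shares exon sequence with AC092681.3 and ATP6V0C with AC093525.1 and AC093525.2, where strand could not divide the reads. ATP6V0C, ATP6V0E1, ATP6V1E1 and ATP6V1G1 have processed copies in the genome, and the 18 annotated V-ATPase pseudogenes together had at most 4.1 TPM in any library, so the copies took few reads, although the division of reads with their parent genes is uncertain.

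The a subunit, which forms the proton path and is known to direct the pump to particular membranes, differed by isoform. ATP6V0A1 rose from 28.3 and 23.2 to 44.0 and 41.6 CPM (log2 fold change 0.73, edgeR adjusted p = 2.91e-05), and ATP6V0A2, of the Golgi, from 36.9 and 35.1 to 44.1 and 42.3 CPM (0.26, edgeR adjusted p = 0.0158). The call of ATP6V0A2 was lost without the empty replicate 1 library (adjusted p = 0.0521) or the empty replicate 2 library (0.13). TCIRG1, the a3 isoform of osteoclasts and late endosomes, stood at 53.4 and 47.0 against 46.3 and 52.4 CPM and was not called (edgeR adjusted p = 0.827). TCIRG1 was nevertheless the leading a isoform per length, with 59.5% and 63.3% of the summed TPM of the 4 isoforms in the empty and 47.5% and 55.2% in the TFCP2L1 libraries. ATP6V0A1 supplied 24.8% and 18.1% and then 30.7% and 27.0%. The kidney isoform ATP6V0A4 stayed at or under 0.954 CPM in every library, was not called (edgeR adjusted p = 0.118) and was higher without empty replicate 1 (adjusted p = 0.0389).

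ATP6V0D1, the d subunit that seats the central stalk, was not called at 91.6 and 95.7 against 78.8 and 92.1 CPM (edgeR adjusted p = 0.186), but it was lower without TFCP2L1 replicate 2 (adjusted p = 0.00361). Its osteoclast and macrophage isoform ATP6V0D2 had 12 and 31 counts in the empty and 2 and 0 in the TFCP2L1 libraries, in all 43 against 2, a ratio of 25.5 (exact 95% interval 6.64 to 217, counting error only), and stood at or under 1.64 CPM. Its log2 fold change was -5.17 without empty replicate 1, -7.59 without TFCP2L1 replicate 1 and -3.56 without TFCP2L1 replicate 2. The accessory subunits ATP6AP1 and ATP6AP2, which are needed for assembly, were not called (log2 fold changes -0.10 and 0.13). ATP6AP1 was lower without TFCP2L1 replicate 2 (adjusted p = 0.0451) and ATP6AP2 higher without TFCP2L1 replicate 1 (adjusted p = 0.0186). ATP6AP1L, a gene named for its likeness to ATP6AP1, fell from 32.6 and 29.9 to 8.09 and 8.17 CPM, a log2 fold change of -1.94 ± 0.11 (SE, edgeR adjusted p = 3.21e-09). The number of fallen V-ATPase genes was 1 without empty replicate 2, where ATP6V0D2 had too few counts to be tested, and 4 without TFCP2L1 replicate 2.

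**Figure D3:**
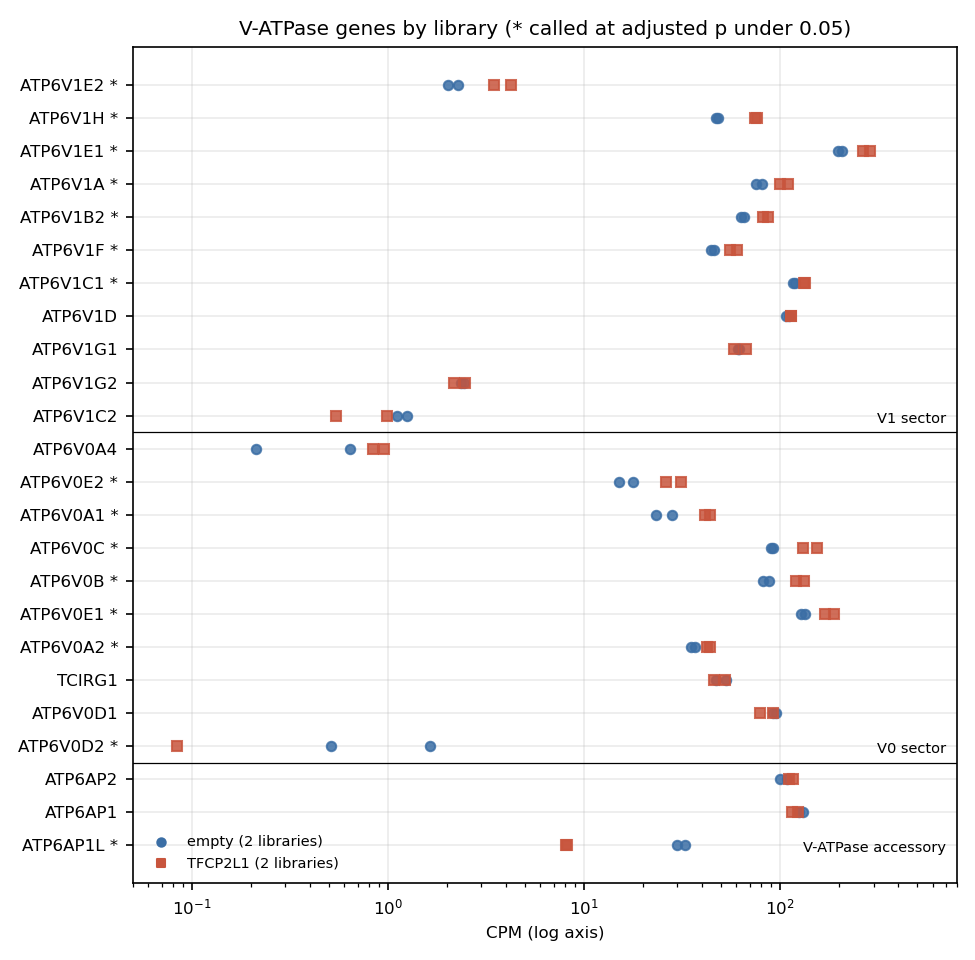
CPM on a log axis of the 24 tested V-ATPase genes, 1 point per library, grouped into V1, V0 and accessory subunits, with an asterisk for genes called at an edgeR adjusted p under 0.05. Most called rows have both TFCP2L1 libraries to the right; ATP6AP1L and ATP6V0D2 are to the left, and the ATP6V0D2 library at 0 CPM cannot be drawn on this axis.

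Genes whose products assemble or bind the pump, form a separate list. Of 11 tested, 4 rose and 3 fell, 63.6% called beside 47.5% of all tested genes. NCOA7, a TLDc-domain protein that binds the V-ATPase, rose from 21.1 and 25.6 to 136 and 127 CPM, 5.66-fold (log2 fold change 2.50 ± 0.09 SE, edgeR adjusted p = 3.42e-11). OXR1, another TLDc protein, rose by 0.86 on the log2 scale, whereas MEAK7, also with this domain, fell from 71.0 and 68.0 to 34.8 and 33.8 CPM (-1.02, edgeR adjusted p = 7.31e-08), and TBC1D24 fell by 0.40. Of the rabconnectin complex, which reassembles V1 on V0, ROGDI rose from 7.60 and 7.61 to 14.0 and 16.6 CPM (1.01, edgeR adjusted p = 2.45e-05) and DMXL1 by 0.78, while its homologue DMXL2 fell by 0.29.

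The machinery that tags and sorts hydrolases was higher in 4 of 6 genes and lower in 1, or 66.7% and 16.7%, beside 23.5% and 23.9% of all tested genes. GNPTAB encodes the catalytic part of the phosphotransferase that starts the mannose 6-phosphate tag. It stood at 37.6 and 39.6 CPM in the empty and at 87.5 and 77.0 CPM in the TFCP2L1 libraries, a 2.13-fold rise (log2 fold change 1.09 ± 0.08 SE, edgeR adjusted p = 8.12e-08). GNPTG, the enzyme's gamma subunit and a bearer of the full promoter motif, rose from 32.4 and 31.1 to 43.3 and 52.0 CPM (0.59, edgeR adjusted p = 0.000161). NAGPA, which uncovers the tag, was not called.

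The receptors that read the tag rose less. IGF2R, the large mannose 6-phosphate receptor, went from 288 and 294 to 399.9 and 344 CPM (log2 fold change 0.35, edgeR adjusted p = 0.000668), and the small receptor M6PR from 304 and 299.8 to 339 and 330.1 CPM (0.15, edgeR adjusted p = 0.0351). The M6PR call was lost without the empty replicate 1 library (adjusted p = 0.198) or the empty replicate 2 library (0.253). SORT1, a sorting receptor that does not use the tag, fell from 96.8 and 91.6 to 78.0 and 75.1 CPM (-0.30, edgeR adjusted p = 0.00207), a call lost without empty replicate 1 (adjusted p = 0.0602).

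The hydrolases and their activators gave 14 of 50 tested genes higher and 14 lower, 28.0% each way beside 23.5% and 23.9% of all tested genes, with a median log2 fold change of 0.04. Without the empty replicate 1 library 9 were lower. Among proteases, CTSD, the lysosomal aspartic protease, was the most abundant per length and rose the most. It stood at 388 and 410.3 CPM in the empty and at 680.2 and 779 CPM in the TFCP2L1 libraries, 1.83-fold (log2 fold change 0.87 ± 0.07 SE, 2 libraries per group, edgeR adjusted p = 9.44e-08). The other called endopeptidases fell. CTSB, a cysteine cathepsin, went from 495 and 504 to 403 and 433 CPM (-0.26, edgeR adjusted p = 0.00177), and LGMN, the asparaginyl endopeptidase that processes cathepsins, from 52.0 and 46.0 to 39.6 and 39.0 CPM (-0.32, edgeR adjusted p = 0.00587). The LGMN call was lost without empty replicate 1 (adjusted p = 0.149). CTSA, which shields sialidase and beta-galactosidase, rose by 0.19 on the log2 scale, and its call was lost without empty replicate 1 (adjusted p = 0.262), empty replicate 2 (0.0742) or TFCP2L1 replicate 2 (0.149). CTSC, TPP1, CTSK and CTSS were not called. Summed over the role, proteases took 961 and 971 TPM in the empty and 1176 and 1230.0 TPM in the TFCP2L1 libraries. Of the summed TPM of all hydrolases and activators, CTSD held 10.1% and 10.2% in the empty libraries. With TFCP2L1 it held 15.5% and 16.7%, while CTSB went from 9.5% and 9.4% to 6.7% and 6.9%. The deposited table does not place 7 further cathepsins in the pathway, and of these 5 fell, among them CTSL by 0.44 and CTSZ by 0.30 on the log2 scale, and 1 rose. That is 71.4% lower and 14.3% higher, beside 23.9% and 23.5% of all tested genes. Of the 5, CTSV and CTSW stood at or under 1.33 CPM, and the authors' DESeq2 gave them adjusted p of 0.0949 and 0.206. Another of the 5, and the 1 that rose, were not called with DESeq2 (adjusted p = 0.0997 and 0.213).

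Enzymes that trim sugar chains gave 7 higher and 5 lower of 21, or 33.3% and 23.8%, beside 23.5% and 23.9% of all tested genes. GLA, the alpha-galactosidase, rose from 44.6 and 44.4 to 68.4 and 77.9 CPM (log2 fold change 0.72, edgeR adjusted p = 5.27e-06). HEXA, an alpha subunit of a ganglioside-cleaving enzyme, rose from 82.9 and 87.4 to 112 and 118 CPM (0.44, edgeR adjusted p = 8e-05). FUCA1, an alpha-fucosidase, fell from 13.5 and 12.4 to 7.88 and 9.20 CPM (-0.60, edgeR adjusted p = 0.00207). IDUA, an enzyme in the breakdown of heparan and dermatan sulfate, rose from 2.66 and 2.43 to 5.62 and 4.39 CPM (0.97, edgeR adjusted p = 0.00242). HYAL3 (0.61) and HYAL2 (0.32) rose on the log2 scale; both share exon sequence on the same strand with other genes, HYAL3 with NAA80 and IFRD2 and HYAL2 with TUSC2. HYAL1, a hyaluronidase at 0.649 to 1.63 CPM, fell by 1.12, and its call was lost without empty replicate 1 (adjusted p = 0.144), empty replicate 2 (0.0566) or TFCP2L1 replicate 2 (0.0896). GAA, the acid alpha-glucosidase of glycogen, stood at 7.86 and 9.67 against 7.88 and 9.54 CPM, overlapping groups that were not called, with 2 full motifs in the promoter shown above.

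The sulfatase role has 8 genes, among them SUMF1, which is not itself a sulfatase. Of these 8, 3 fell and 1, SUMF1, rose, or 37.5% and 12.5%, beside 23.9% lower and 23.5% higher of all tested genes. IDS, the iduronate sulfatase, fell from 175 and 182 to 109 and 96.5 CPM (log2 fold change -0.80 ± 0.07 SE, edgeR adjusted p = 2.95e-07), the largest change in the role, although a nearby pseudogene copy makes its read assignment uncertain. GALNS, whose promoter also holds the full motif shown above, fell from 49.5 and 51.3 to 39.7 and 37.1 CPM (-0.39, edgeR adjusted p = 0.000937). ARSA, which acts on sulfatide, fell from 26.8 and 24.0 to 17.6 and 21.9 CPM (-0.36, edgeR adjusted p = 0.0164), and its call was lost without empty replicate 1 (adjusted p = 0.126) or TFCP2L1 replicate 1 (0.132). SUMF1, the enzyme that activates all sulfatases, rose from 25.2 and 27.1 to 35.4 and 35.5 CPM (0.44, edgeR adjusted p = 0.000745). The genes of the role, SUMF1 included, together took 189.5 and 199 TPM in the empty and 174 and 154.5 TPM in the TFCP2L1 libraries.

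Among 9 tested lipid hydrolases and activators, NPC2 and ASAH1 rose while PSAP, GM2A and PPT2 fell, 55.6% called beside 47.5% of all tested genes. NPC2, which hands cholesterol to NPC1, rose from 149 and 149 to 248 and 274 CPM, 1.75-fold (log2 fold change 0.81 ± 0.06 SE, edgeR adjusted p = 1.1e-07). NPC1 itself, its membrane partner, stood at 97.4 and 96.4 against 95.5 and 94.0 CPM (-0.03, edgeR adjusted p = 0.704). ASAH1, the acid ceramidase, rose from 44.1 and 50.6 to 72.2 and 72.3 CPM (0.61, edgeR adjusted p = 2.26e-05). The saposin precursor PSAP, whose products help enzymes reach sphingolipids, fell from 1022 and 1041 to 765 and 805 CPM (-0.39, edgeR adjusted p = 3.49e-05). GM2A, the activator that presents ganglioside to the enzyme that cleaves it, fell from 69.4 and 68.1 to 43.3 and 44.3 CPM (-0.65, edgeR adjusted p = 5.18e-06), while the log2 ratio of its TPM was -1.59. PPT2, a thioesterase, fell by 0.52 on the log2 scale and shares exons with the read-through gene PPT2-EGFL8. The role's summed CPM was lower with TFCP2L1 (1663 and 1690.2 against 1488 and 1558), whereas its summed TPM, which weighs the short NPC2 transcript more, was higher (1414 and 1429 against 1585 and 1583).

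Among the nucleases and phosphatases, DNASE2, the acid DNase, rose from 46.0 and 49.7 to 82.4 and 85.6 CPM (log2 fold change 0.81, edgeR adjusted p = 5.77e-07). ENTPD4, a nucleotide phosphatase, rose from 44.9 and 45.0 to 68.7 and 61.0 CPM (0.53, edgeR adjusted p = 9.07e-05) and shares exon sequence with LOXL2. ACP5, the tartrate-resistant phosphatase of osteoclasts and macrophages, fell from 4.98 and 4.81 to 2.14 and 2.37 CPM (-1.12, edgeR adjusted p = 0.000667). With SPI1 and TYROBP at 0 and the summed macrophage markers between 17.5 and 22.8 CPM, the part of other cells in the ACP5 and ATP6V0D2 values was not tested.

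**Figure D4:**
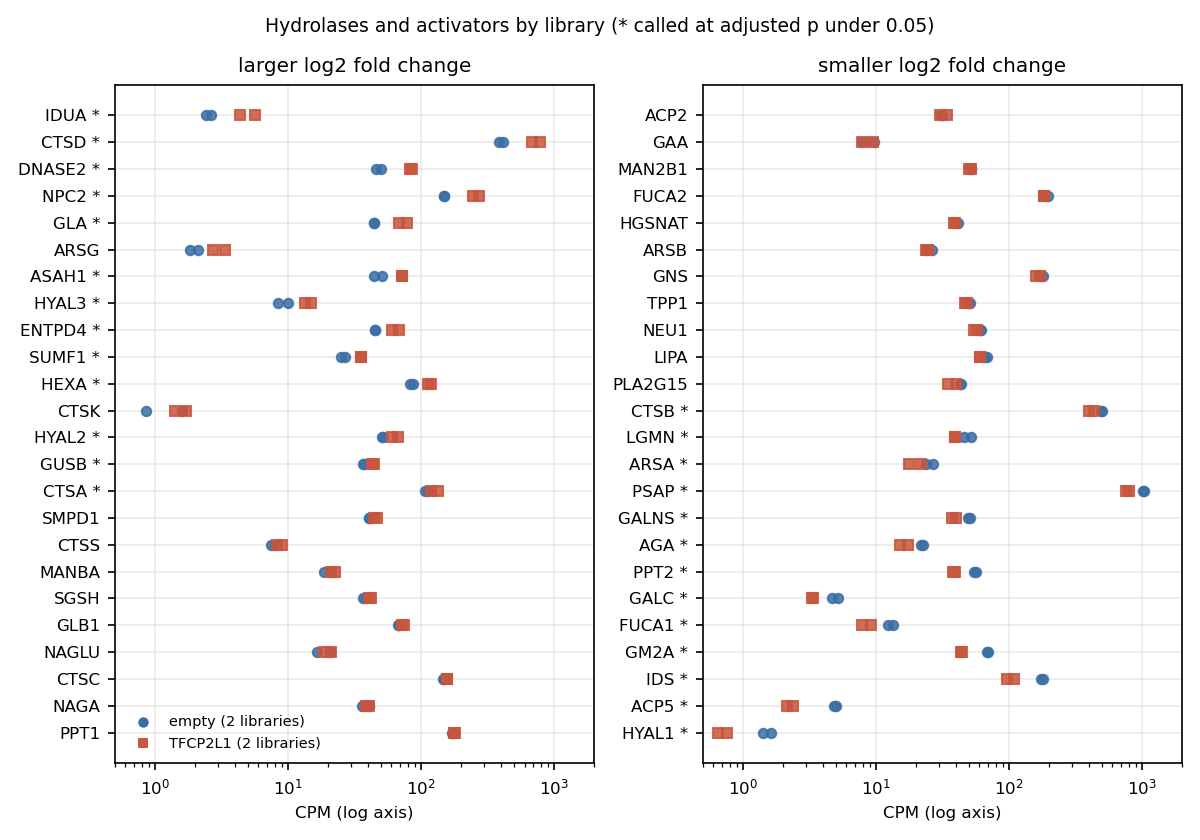
CPM on a log axis of tested hydrolases and activators, 1 point per library, sorted by log2 fold change with the larger changes in the left panel; an asterisk marks genes called at an edgeR adjusted p under 0.05. CTSD (388 and 410.3 against 680.2 and 779 CPM) lies to the right with TFCP2L1 in the left panel and PSAP (1022 and 1041 against 765 and 805 CPM) to the left in the right panel.

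The lysosome-associated membrane proteins LAMP1 and LAMP2 were not called. LAMP1, the most used marker of the organelle, stood at 228 and 231 against 233 and 240.1 CPM (log2 fold change 0.05, edgeR adjusted p = 0.532), and LAMP2 at 166 and 166 against 172 and 159.8 CPM (-0.00, edgeR adjusted p = 0.984), with overlapping groups for LAMP2. Of 14 tested membrane and membrane-associated members, 4 rose and 3 fell, or 28.6% and 21.4%, beside 23.5% and 23.9% of all tested genes. MCOLN1, the calcium channel whose promoter holds the full motif, rose from 14.4 and 15.4 to 20.1 and 22.6 CPM (0.52, edgeR adjusted p = 0.00111), and it shares exon sequence with PNPLA6. CD164 rose by 0.28. CTNS, the cystine exporter, fell from 36.2 and 35.9 to 24.6 and 26.9 CPM (-0.49, edgeR adjusted p = 0.000381), and LITAF, of late endosomes, fell by 0.39. CD63, the tetraspanin with the highest TPM of the role, fell from 373 and 373 to 312 and 336 CPM (-0.20, edgeR adjusted p = 0.00917), a call lost without empty replicate 1 (adjusted p = 0.105) or empty replicate 2 (0.0969). SCARB2, a lysosomal membrane glycoprotein, rose by 0.15, and its call was lost without empty replicate 1 (adjusted p = 0.147), empty replicate 2 (0.317) or TFCP2L1 replicate 1 (0.0897).

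Clathrin and adaptor genes, which form the coats of the sorting vesicles, gave 10 called of 25 tested, or 40.0% beside 47.5% of all tested genes, with 8 higher and 2 lower. CLTB, a clathrin light chain, rose from 65.4 and 56.4 to 89.6 and 93.6 CPM (log2 fold change 0.59, edgeR adjusted p = 2.7e-05), while the other light chain, CLTA, the most abundant gene of the role per length, stood at 185 and 181 against 159.8 and 179.7 CPM and was not called (edgeR adjusted p = 0.193). CLTA was lower without TFCP2L1 replicate 2 (adjusted p = 0.00585). The heavy chain CLTC, at 569.8 and 593 against 562 and 529 CPM, was not called either, but was lower without TFCP2L1 replicate 1 (adjusted p = 0.0338). AP1B1, the large beta subunit of the AP-1 coat, rose by 0.44, and AP3B1 (0.33) and AP3M2 (0.47), both of the AP-3 coat that serves lysosomal membrane proteins, rose on the log2 scale. The AP-3 small subunits AP3S1 and AP3S2 fell by 0.23 and 0.29. The AP3S1 call was lost without empty replicate 1 (adjusted p = 0.105) or empty replicate 2 (0.09), and the AP3S2 call without empty replicate 2 (adjusted p = 0.143). AP3S2 also shares exons with a read-through gene.

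**Figure D5:**
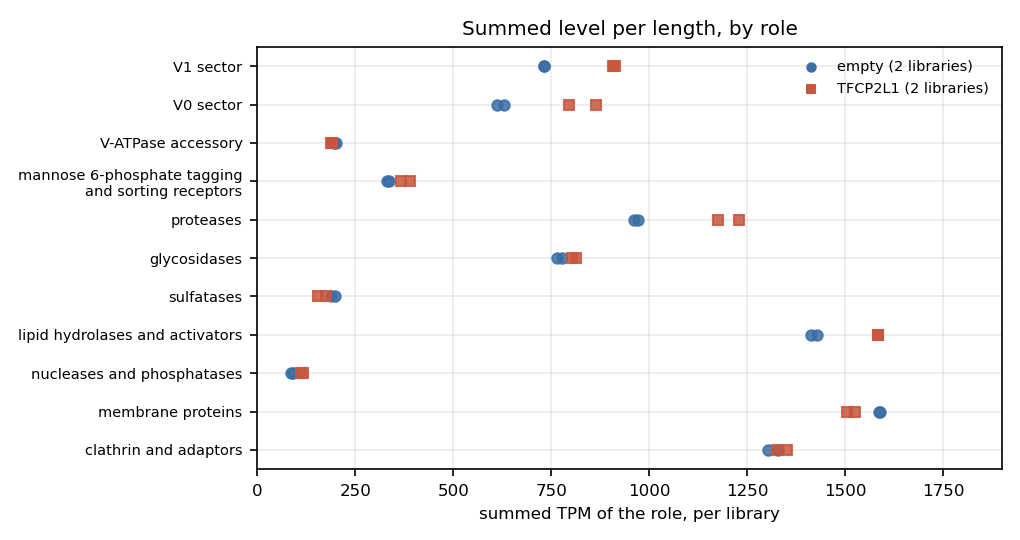
Summed TPM of the members in each role, 1 point per library (axis from 0). The V0 sector (629 and 611 against 796 and 865 TPM) and V1 sector (732 and 731 against 909 and 912 TPM) lie higher with TFCP2L1 and the sulfatases lower. The membrane proteins lie lower in summed TPM (1585 and 1589.6 against 1524 and 1505), but their summed CPM was 1819 and 1833 against 1835 and 1884.

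All members together took 1.075% and 1.085% of the counts in the empty and 1.14% and 1.16% in the TFCP2L1 libraries. The 6 members without a role, antisense, read-through and neighbouring loci, held 1 called gene, ATP6V1FNB, which fell by 0.82 at 1.09 to 2.23 CPM, a call lost without empty replicate 1 (adjusted p = 0.335), TFCP2L1 replicate 1 (0.123) or TFCP2L1 replicate 2 (0.0991). A list of lysosomal genes that the deposited pathway lacks had 47 tested genes outside the members, of which 21 rose (44.7%) and 5 fell (10.6%). Over all tested genes 23.5% were higher and 23.9% lower. The list was chosen with earlier results of these data known, so its counts are no independent check. GRN, the progranulin precursor needed for lysosomal function, rose from 173 and 188 to 299.7 and 326 CPM (log2 fold change 0.79, edgeR adjusted p = 1.63e-07). CLN6, an endoplasmic reticulum protein that helps hydrolases leave that compartment, rose from 35.7 and 41.3 to 75.5 and 77.8 CPM (1.00, edgeR adjusted p = 2.25e-07). GPNMB, a lysosomal glycoprotein, rose by 0.94. Of the pathway genes left out by name, CD68 rose from 36.1 and 38.1 to 86.3 and 88.3 CPM (1.24, edgeR adjusted p = 7.62e-09), while LAPTM5 fell from 12.1 and 11.3 to 0.168 and 0.305 CPM (-5.58, edgeR adjusted p = 7.89e-10).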

How the data were processed

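The members and gene lists were chosen with earlier results of these data known. The authors deposited estimated counts and TPM for each gene and library, per the file headers. Beside them the authors deposited their fold change (a ratio), log2 fold change, p-value and adjusted p-value, made with DESeq2 as the deposited workbook is named. Bowtie 0.12.2 and mm9 stand in the submitters' processing notes, but mm9 is a mouse genome and the gene IDs are human, so aligner, counter, strand setting and annotation of these counts are not given in the sources used here. Instruments are named differently in the protocol and the design text.

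Positions, strands and exon overlaps come from GENCODE release 29 (GRCh38), matched by gene ID, which need not be the authors' annotation. Of the 125 tested members 71 share exon sequence with another annotated gene, 28 on the same strand, among them CTSD, ATP6V0A1, ATP6V0C and ATP6V0E2.

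Estimated counts were rounded and tested over the whole table with edgeR 4.0.16 in R 4.3.3 (glmQLFit, robust, and glmQLFTest), TMM factors of 0.995 to 1.005, filterByExpr at 10 counts, and Benjamini-Hochberg adjustment with calls at an adjusted p under 0.05. The common biological coefficient of variation was 0.059. An SE is the absolute log2 fold change over the root of its F statistic. CPM, on TMM-scaled library sizes, compare groups; TPM compare genes. Libraries of a group differed by more than counting noise (chi-square per degree of freedom 3.23 and 5.84, against 56.5 to 70.0 between groups). An exact permutation test of 2 against 2 libraries has 3 splits and cannot go below p = 0.33, so none is given. Scripts were tested on simulated data.

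Alternatives were 3 other scalings, 2 other filters, DESeq2 1.42.0, limma-voom (limma 3.58.1), limma on log2(TPM + 1), an adjusted p threshold of 0.01, a minimum log2 change of 1 in either direction, and each library left out in turn; where that left 1 library in a group, it was assumed to vary like the other group's. Named genes are all V-ATPase members with enough counts, in each role the 4 called members of smallest p, called members past a log2 change of 1 with at least 5 CPM and the member of highest TPM, up to 4 called genes per list, and the 4 TFEB-family genes; others were named after their values were seen. Some genes that this rule chose are counted but not reported by name here.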

Additional observations from a re-analysis of the deposited data

How the results depend on the processing

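No called member reversed its direction under any alternative run here. Called genes numbered 7856 over the whole table, 4015 with limma on log2(TPM + 1) and 2299 with a log2 fold minimum of 1. With limma on log2(TPM + 1), 21 members rose and 7 fell, V-ATPase genes were 7 higher and 1 lower, and hydrolases and activators 5 higher and 6 lower. With the log2 fold minimum of 1, 1 member rose and 4 fell, V-ATPase genes were 0 higher and 2 lower, and hydrolases 0 higher and 2 lower; the zeros come from the fold minimum, at the same edgeR adjusted p. Under the filter on CPM (1 or more in at least 2 libraries) 1 V-ATPase gene was lower, since ATP6V0D2 was not tested there. Leaving out 1 library gave 5953 to 7858 called genes, 34 to 45 members higher and 14 to 24 lower, 11 to 13 V-ATPase genes higher and 1 to 4 lower, and 11 to 16 hydrolases higher and 9 to 13 lower. DESeq2 called 35 members higher and 18 lower. Of the 66 called members 26 kept the call in all 12 settings of tool, scaling, filter and library, 20 higher and 6 lower, and 20 lost it without at least 1 library. Of the 66 calls, 38 were lost with limma on log2(TPM + 1), where called genes over the whole table were 4015, not 7856. The share of all called genes that kept the call is not given here, so these counts have no background. Upper-quartile scaling moved the median log2 fold change of all tested genes to -0.03, and with it 37 members rose and 25 fell. No paired analysis was possible because the replicate numbers follow accession order only and the titles share no number between groups. With 2 libraries per group, genes of low count, such as ATP6V0A4 and ATP6V1C2, were measured too loosely to show changes of the size seen in the pump's abundant subunits. The cause of these differences was not tested.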

Other observations

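The fold change of GM2A depended on the deposited unit. Its TPM fell from 49.0 and 43.2 to 15.9 and 14.7, a log2 ratio of -1.59, while its CPM gave -0.65. Of 118 members with at least 1 TPM in both groups, GM2A was the only one (0.847%) whose ratios in TPM and CPM differed by 0.5 or more on the log2 scale; 2.27% of 13340 genes over the whole table did. TPM follow the transcript length that the authors' quantification assigned in each library, and what changed that length was not tested.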
